A study of Mus musculus with 6 samples.

Results

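Siglecs are sialic acid-binding lectins of the immunoglobulin superfamily, and 7 of their genes were followed here: Siglec1, Cd22, Siglecg, Cd33, Siglece, Siglecf and Siglech. The members were given as a list of lectin genes, chosen by their counts in the comparison of GFP-positive with GFP-negative libraries described here, and all 7 were found by symbol among the 35275 gene identifiers of the deposited count table. For that reason their levels and fold changes are given as a description, with no p-value. RNA came from liver cells bound by beads against CD31, a surface protein of endothelium that platelets and many leukocytes also carry. All mice were 1 year old and carried a p16-Cre driver with the Rosa26-mTmG reporter. Cre under control of the p16 gene switches this reporter from a red to a green membrane protein, so a cell is green when it, or a cell it came from, has used that promoter. Sorting gave 3 GFP-positive libraries (p16/EGFP-positive) and 3 GFP-negative libraries (p16/EGFP-negative), with the same driver and reporter in both. The labels do not say how many mice were used or whether libraries share one, so the errors and p-values below measure the spread between libraries, which may be technical. They also describe culture of bead-bound cells in endothelial medium without saying whether the sequenced cells went through it.

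A siglec reads the sialic acids that cap sugar chains on its own cell and on neighbouring cells. Most members carry tyrosine motifs in the cytoplasm that recruit phosphatases such as SHP-1 and dampen activating receptors, while a few pair with the adaptor DAP12 instead. In the mouse, Siglec1 (sialoadhesin, CD169) is an adhesion receptor of resident macrophages, Siglece and Cd33 belong to myeloid cells, Cd22 and Siglecg restrain the B cell receptor, Siglecf marks eosinophils and Siglech marks plasmacytoid dendritic cells. The liver holds Kupffer cells, its resident macrophages, along the same sinusoids as its endothelium and passing lymphocytes.

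GFP-positive libraries held 16766556 to 17849620 counts and GFP-negative libraries 18067411 to 22627555. Cdkn2a, which encodes p16, had 15, 27 and 7 counts in GFP-positive libraries and 0 in each GFP-negative library. Pecam1, the gene for CD31, stood at 453 ± 58.5 CPM (counts per 1000000, on library sizes scaled by edgeR's TMM factors) in the GFP-positive libraries, against 342 ± 41.0 CPM in the GFP-negative ones (SD, n = 3). Across all genes, 2157 of 12122 tested (17.8%) passed edgeR's quasi-likelihood test at an adjusted p of 0.05. Of these, 927 were higher (7.65%) and 1230 lower (10.1%) in GFP-positive libraries, and the median log2 fold change was −0.09. All 11 Kupffer cell markers were higher and all 10 B cell markers lower. Of the other lists, 8 of 10 sinusoidal endothelial and 3 of 5 platelet markers were higher, and 3 of 5 hepatocyte markers, 1 of 6 measured T and NK cell markers, 1 of 5 measured conventional dendritic cell markers and 1 of 1 measured basophil and mast cell marker were lower. With 1 library left out, these lower counts were 0 to 3 for hepatocyte, 1 to 3 for T and NK cell and 0 for basophil and mast cell markers, and DESeq2 called 6 T and NK cell markers lower. In bulk RNA, fewer cells of a type and less RNA per cell cannot be told apart, which holds for every difference below.

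The family had a different makeup on the 2 sides of the sort. GFP-positive libraries held Siglece and Siglec1 with some Cd22 and little else, and GFP-negative libraries held almost only the B cell members Cd22 and Siglecg. Summed over the 7 genes, the level was 169, 128 and 146 CPM in GFP-positive libraries 1 to 3 against 592, 595 and 687 CPM in GFP-negative libraries 1 to 3. The family's sum was thus lower in all GFP-positive libraries, and the groups did not overlap. After division by exon length, Siglece made up 73.1%, 75.6% and 80.9% of the family in GFP-positive libraries, against 0.0931%, 3.98% and 3.66% in GFP-negative libraries. Cd22 made up 10.6%, 1.29% and 4.40% in GFP-positive libraries, against 69.7%, 58.6% and 65.5% in GFP-negative libraries. Siglecg made up 0% in each GFP-positive library, against 27.4%, 36.8% and 30.0% in GFP-negative libraries.

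**Figure D1:**
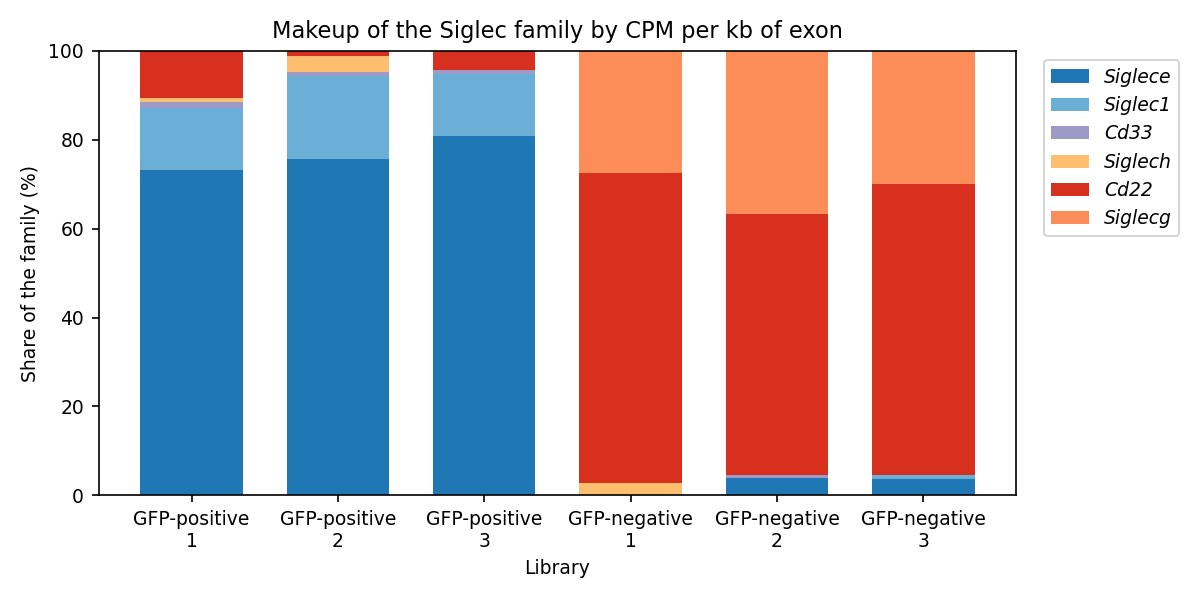
Share of each gene in the Siglec family's summed level (%, CPM per kb of exon) in each of the 6 libraries, GFP-positive on the left and GFP-negative on the right. Siglece fills 73.1% to 80.9% of the GFP-positive bars, and Cd22 with Siglecg fills nearly all of the GFP-negative bars.

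Of the 7 members, 6 passed the filter on low counts, and 2 of these, Cd22 and Siglecg, were past the threshold of the fit across all genes, both lower. By edgeR 0 members were past it as higher, though 2 were at an unadjusted p under 0.05, and DESeq2 called 2 higher, Siglec1 and Siglece. Across all genes 17.8% were past edgeR's threshold. The groups did not overlap for 4 members, higher for Siglec1 and Siglece and lower for Cd22 and Siglecg, where 42.4% of all tested genes showed no overlap (18.5% higher, 23.9% lower). Nothing is read from these counts, since the members were chosen with this comparison in view. Siglech, with a log2 fold change of −0.62, and Cd33, with 0.90, lay nearest to 0 and did not pass. The median log2 fold change over the 6 measured members was 0.14. It rests on the middle values, those of Siglech and Cd33. It was also 0.14 with Siglecg set at its bound, a change that could not move it.

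**Figure D2:**
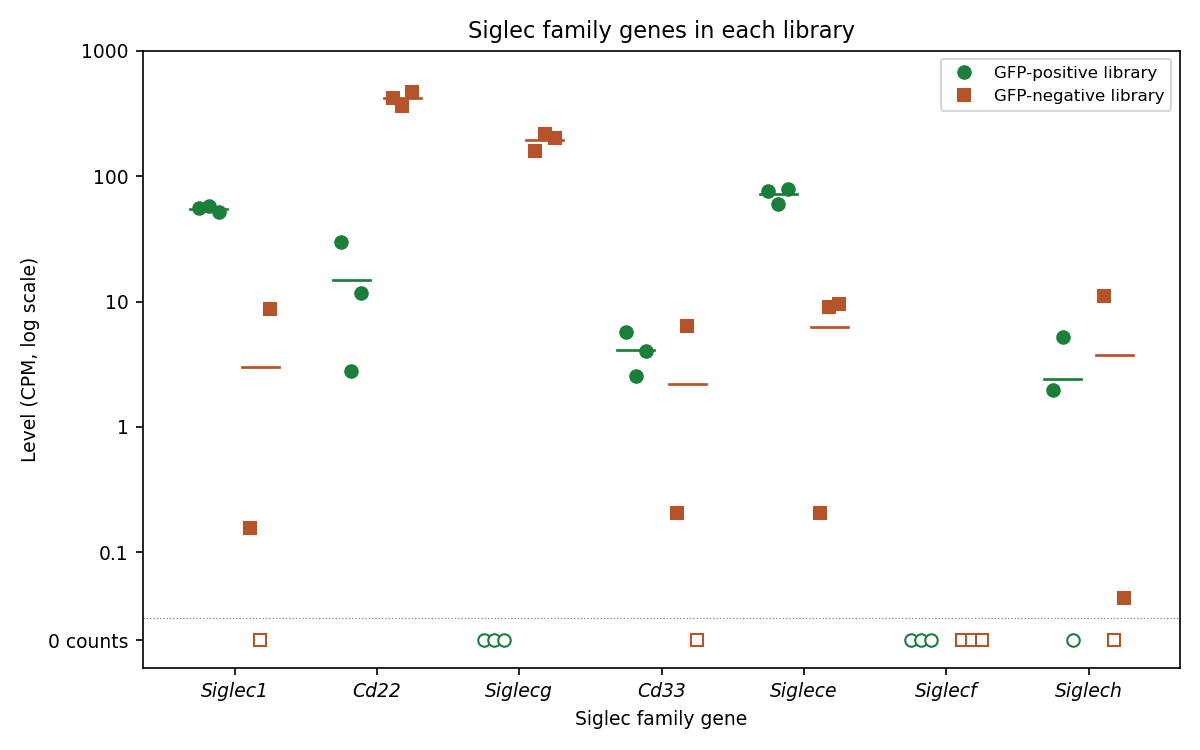
Level of each Siglec gene (CPM, log scale) in every library, with GFP-positive libraries as green circles left of GFP-negative libraries as brown squares, lines at group means and open symbols for 0 counts. Siglec1 and Siglece sit higher in all 3 GFP-positive libraries, Cd22 and Siglecg higher in all 3 GFP-negative ones, Cd33 and Siglech overlap, and Siglecf has 0 counts throughout.

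Siglecg (ENSMUSG00000030468), an inhibitory receptor best known on B1 cells, split the sort without a remainder. It had 0 counts in each GFP-positive library, against 3064, 3932 and 4669 counts, or 158, 217 and 203 CPM, in GFP-negative libraries. With 3 counts over the whole GFP-positive group as the floor, 0.0584 CPM, the level was at least 3300-fold lower than the GFP-negative mean of 193 ± 30.6 CPM (SD, n = 3). This bound covers counting error only, since the reads carry no molecular identifiers and are not independent molecules.

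Cd22 (ENSMUSG00000030577), the siglec that binds sialic acid in the linkage made by the enzyme St6gal1 and holds back B cell receptor signals, did leave a remainder. It had 482, 48 and 210 counts, or 29.9, 2.80 and 11.6 CPM, in GFP-positive libraries, against 8162, 6575 and 10692 counts, or 422, 363 and 465 CPM, in GFP-negative libraries. The GFP-positive libraries were low and uneven, with library 1 the highest and library 2 the lowest, and the GFP-negative ones lay close together. Averages were 14.8 ± 13.8 CPM in the GFP-positive libraries, against 417 ± 51.5 CPM in the GFP-negative ones (SD, n = 3), for a log2 fold change of −4.82 ± 0.80 (SE). Without GFP-positive library 1 it was −5.85. An antisense gene that overlaps Cd22 exons, Gm29439, had 0 counts in all 6 libraries.

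The upstream sequences of the 2 B cell members are shown because both genes were lower in GFP-positive libraries while only 1 of them was lost entirely. They are RefSeq's for GRCm38.p6, on the gene's strand, and run over the 250 bases before the start site; Cd22 lies on the minus strand at chr7:30879029-30879278 and Siglecg on the plus strand at chr7:43407989-43408238. Capitals mark a match to TCCC and GGGA with any 2 bases between, the core bound by the B cell factor EBF.
Cd22: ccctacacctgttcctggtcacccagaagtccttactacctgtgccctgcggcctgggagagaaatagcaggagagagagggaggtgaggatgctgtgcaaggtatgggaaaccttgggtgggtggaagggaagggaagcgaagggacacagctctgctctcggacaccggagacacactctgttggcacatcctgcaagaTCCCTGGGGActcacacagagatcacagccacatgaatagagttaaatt
Siglecg: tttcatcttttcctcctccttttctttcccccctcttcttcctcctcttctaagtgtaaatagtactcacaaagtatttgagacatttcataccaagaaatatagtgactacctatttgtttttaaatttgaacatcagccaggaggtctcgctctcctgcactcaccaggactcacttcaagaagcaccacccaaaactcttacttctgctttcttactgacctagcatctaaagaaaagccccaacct
In all 4 motifs were searched on both strands of the 300 bases around each start site, 250 before and 50 after. These were that EBF core, found in 0.904% of 32851 mouse promoters, GAGGAAGT, a form of the PU.1 site (3.20%), ATTTGCAT, the octamer (1.74%), and GAAA repeated after any 2 bases, a pattern of interferon regulatory factor sites (3.44%). No motif overlapped another. Of the 6 members with a promoter in the table, Cd22 alone held any match, that shown, which begins at base 202. Siglecg has 2 start sites there, of which the first is printed. A match is a string of letters and was not tested as a binding site.

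Cd22 and Siglecg were set beside the B cell markers of the same libraries. The 10 markers summed to 55.5 to 82.5 CPM in the GFP-positive libraries, against 8940 to 9500 CPM in the GFP-negative ones, with a median log2 fold change of −6.98, and Pax5 was at 0 in GFP-positive libraries. In GFP-positive libraries the markers kept between 0% (Pax5) and 2.00% (Blk) of their GFP-negative mean. By group means Cd22 kept 3.54%, above all 10 of them, and Siglecg kept none, beside Pax5 at 0% and Cr2 at 0.0386%. GFP-positive library 1 held 482 of the 740 Cd22 counts of that group. In GFP-positive library 2 the rank did not hold, with Cd22 at 2.80 CPM against a GFP-negative mean of 417 CPM. The marker Fcer2a was at 17.4 CPM there, against a GFP-negative mean of 1080 CPM.

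The contrast between Cd22 and Siglecg also showed in ratios to Cd79a within libraries. For each 1000 counts of Cd79a, which transmits the B cell receptor's signal, there were 835, 318 and 572 Cd22 counts in GFP-positive libraries, against 139, 129 and 173 in GFP-negative libraries. Cd22 was thus high for its Cd79a in all 3 GFP-positive libraries. Siglecg had 0 counts beside 1095 Cd79a counts over the GFP-positive group, which allows up to 2.74 per 1000, against 52.1, 77.4 and 75.6 per 1000 in GFP-negative libraries. Set against Fcer2a, the low-affinity IgE receptor of B cells, Cd22 gave no such order: there were 4730, 161 and 722 counts per 1000 in GFP-positive libraries, against 364, 329 and 477 in GFP-negative ones.

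The B cell remainder itself was uneven. Ms4a1, which encodes CD20, had 18, 204 and 328 counts in GFP-positive libraries 1 to 3, lowest where Cd22 was highest. Cd79a had 577, 151 and 367 counts there, highest and lowest in the same libraries as Cd22. Over GFP-positive libraries the coefficient of variation of Cd22 was 93.5%, against 20.5% to 83.0% for the 9 markers with counts, and over GFP-negative libraries it was 12.4%, against 3.52% to 33.2% for all 10. What share of these reads comes from B cells caught in the green gate was not tested.

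**Figure D3:**
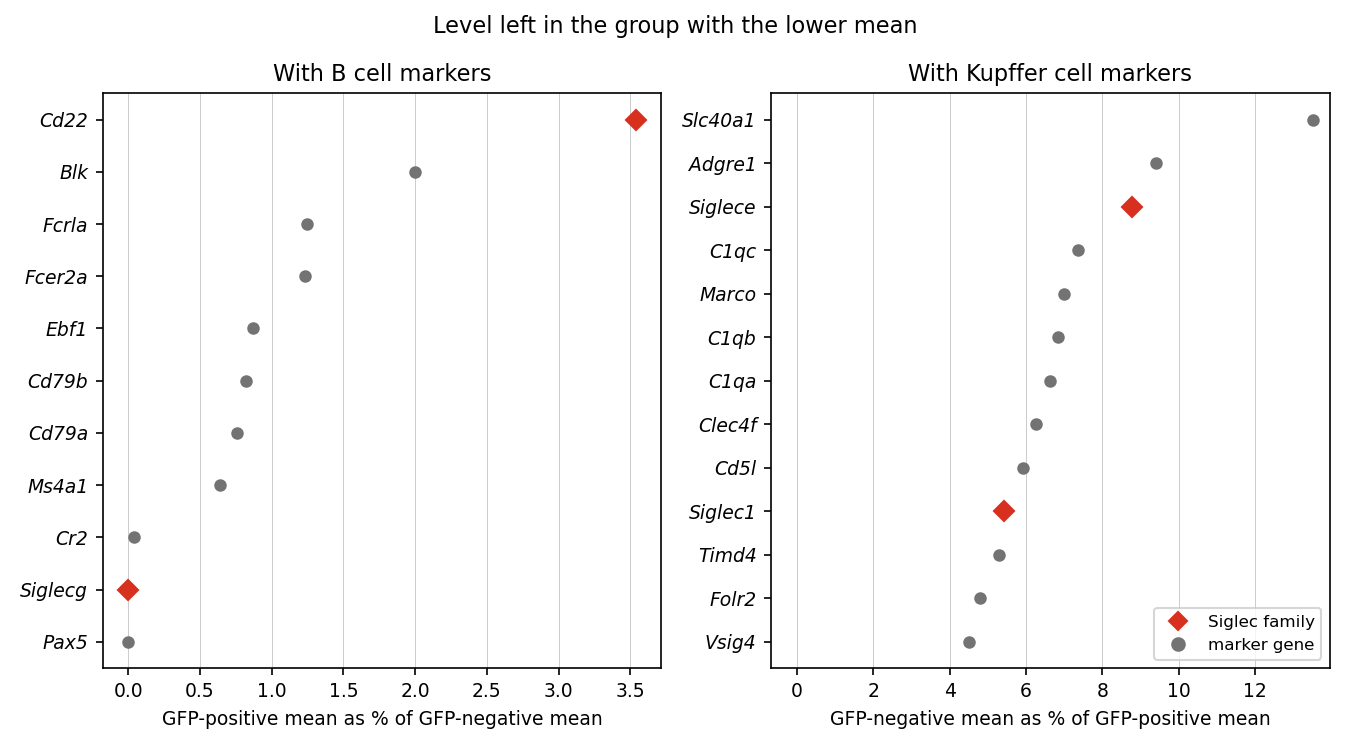
Left, the GFP-positive mean as a percentage of the GFP-negative mean for Cd22, Siglecg and 9 of the 10 B cell markers; right, the GFP-negative mean as a percentage of the GFP-positive mean for Siglec1, Siglece and 11 Kupffer cell markers. By group means Cd22, at 3.54%, lies above every B cell marker shown, though not in GFP-positive library 2 alone, and Siglecg lies at 0. Siglec1, at 5.42%, and Siglece, at 8.77%, lie among the Kupffer cell markers.

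Siglec1 (ENSMUSG00000027322) and Siglece (ENSMUSG00000030474) were the members of GFP-positive libraries. Siglec1 had 903, 990 and 931 counts, or 56.0, 57.7 and 51.6 CPM, in GFP-positive libraries, against 3, 0 and 202 counts, or 0.155, 0 and 8.79 CPM, in GFP-negative libraries. Its GFP-positive libraries were nearly level, and in GFP-negative ones nearly all reads lay in library 3. Averages of 55.1 ± 3.14 CPM in the GFP-positive libraries, against 2.98 ± 5.03 CPM in the GFP-negative ones (SD, n = 3) gave a log2 fold change of 4.20 ± 1.75 (SE). It was 9.32 when GFP-negative library 3 was left out.

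Siglece, an inhibitory receptor of mouse neutrophils, monocytes and macrophages, had 1220, 1033 and 1416 counts, or 75.6, 60.2 and 78.4 CPM, in GFP-positive libraries, against 4, 164 and 219 counts, or 0.207, 9.05 and 9.53 CPM, in GFP-negative libraries. Here GFP-negative library 1 was the low one. Averages were 71.4 ± 9.82 CPM in the GFP-positive libraries, against 6.26 ± 5.25 CPM in the GFP-negative ones (SD, n = 3), and the log2 fold change was 3.51 ± 1.10 (SE). Per kb of exon, Siglece was the most abundant member in GFP-positive libraries, at 38.6 ± 5.31 CPM per kb, followed by Siglec1 at 7.71 ± 0.440, Cd22 at 2.93 ± 2.74, Siglech at 0.712 ± 0.783 and Cd33 at 0.528 ± 0.202, where the last 3 lay within their spread of each other. In GFP-negative libraries the order was Cd22 at 82.6 ± 10.2, Siglecg at 40.1 ± 6.37, Siglece at 3.39 ± 2.84, Siglech at 1.09 ± 1.88, Siglec1 at 0.418 ± 0.704 and Cd33 at 0.283 ± 0.468, and the 4 after Siglecg were not apart beyond their spread.

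Kupffer cell markers moved with both genes. The 11 markers summed to 21200 to 22500 CPM in the GFP-positive libraries, against 1290 to 1710 CPM in the GFP-negative ones, with a median log2 fold change of 3.92, and no marker was at 0. GFP-negative libraries held 4.50% (Vsig4) to 13.5% (Slc40a1) of the GFP-positive mean of these markers, and Siglec1, at 5.42%, and Siglece, at 8.77%, lay within that range. The group means of the 2 genes were thus as far apart as those of Kupffer cell markers.

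Library by library they did not follow them. For each 1000 counts of Clec4f, a lectin of Kupffer cells, Siglec1 had 11.9, 10.8 and 9.20 counts in GFP-positive libraries, against 0.570, 0 and 21.1 in GFP-negative libraries. Siglece had 16.1, 11.3 and 14.0 per 1000 Clec4f counts in GFP-positive libraries, against 0.759, 31.2 and 22.9 in GFP-negative ones. In both cases the GFP-negative values lay on either side of the GFP-positive ones. Timd4, another Kupffer cell gene, was even by the same measure, with 56.2, 58.0 and 57.2 in GFP-positive and 50.3, 50.3 and 45.6 in GFP-negative libraries.

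Variation within the groups set the 2 genes apart from the markers in GFP-negative libraries only. Over GFP-positive libraries the coefficient of variation was 5.71% for Siglec1 and 13.8% for Siglece, beside 2.35% to 16.4% for the 11 Kupffer cell markers. Over GFP-negative libraries it was 169% for Siglec1 and 83.8% for Siglece, beside 1.73% to 30.0% for the markers. Siglec1 had 205 counts over the 3 GFP-negative libraries and Siglece 387, whereas Timd4, the lowest of the markers there, had 965. The cause of the uneven GFP-negative values was not tested.

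**Figure D4:**
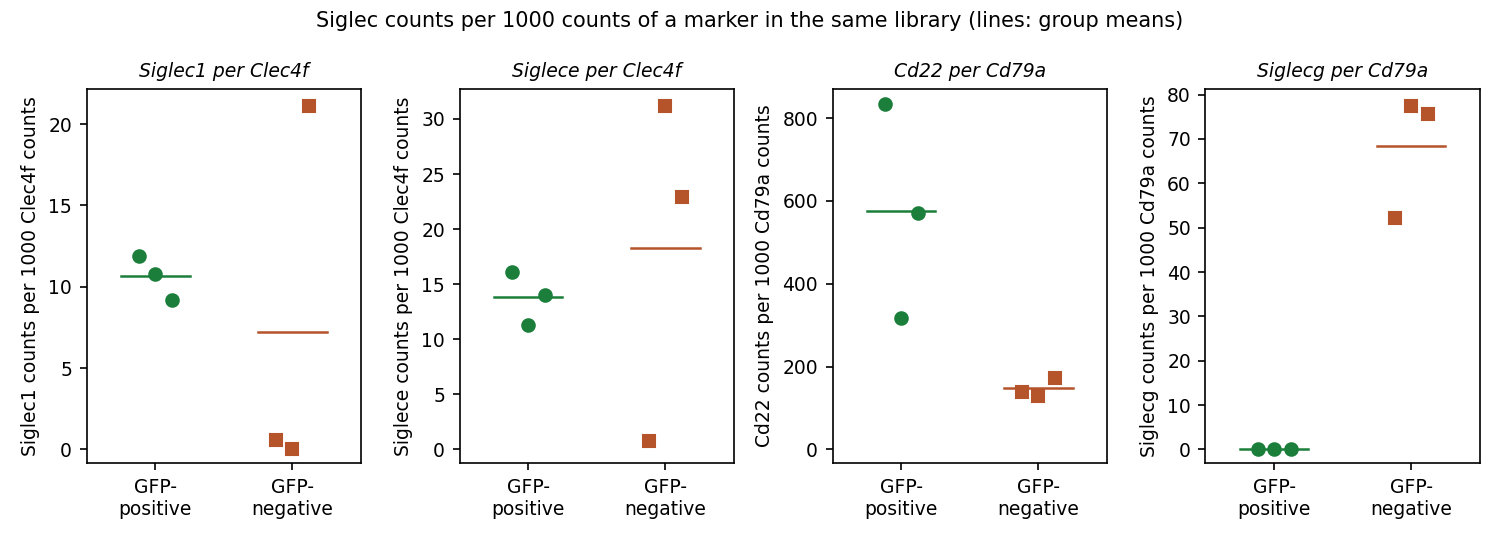
Counts of Siglec1 and Siglece per 1000 counts of the Kupffer cell marker Clec4f, and of Cd22 and Siglecg per 1000 counts of the B cell marker Cd79a, with 1 point per library, GFP-positive left of GFP-negative, and lines at group means. Siglec1 lies at 9.20 to 11.9 in GFP-positive libraries and at 0, 0.570 and 21.1 in GFP-negative ones, and Cd22 at 318 to 835 in GFP-positive and 129 to 173 in GFP-negative ones.

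Siglece is also carried by neutrophils and monocytes, whose markers were read in the same libraries. Of 9 neutrophil markers Ly6g, Ltf and Ngp had 0 counts in every library, 4 were measured and 0 passed edgeR's test, at an adjusted p or an unadjusted p under 0.05, or DESeq2's, and the list summed to 18.5 to 27.9 CPM in the GFP-positive libraries, against 5.94 to 12.1 CPM in the GFP-negative ones. Csf3r had 220, 310 and 471 counts in GFP-positive libraries against 3, 2 and 204 in GFP-negative ones, and was most of the sum in the GFP-positive libraries and in GFP-negative library 3, while Retnlg was most of it in GFP-negative libraries 1 and 2. Csf3r, the G-CSF receptor, had a log2 fold change of 2.65 (adjusted p = 0.342), and of 7.10 without GFP-negative library 3, where it passed (0.0213). Of 6 monocyte markers 3 were measured and 1, Ly6c2, was lower, a call lost without the filter or without any 1 library except GFP-positive library 1. The list summed to 22.5 to 147 CPM in the GFP-positive libraries, against 19.3 to 47.4 CPM in the GFP-negative ones. F13a1 is a coagulation factor subunit of monocytes and macrophages. It had 229, 380 and 2463 counts in GFP-positive libraries against 12, 461 and 292 in GFP-negative ones. The log2 fold change was 2.16 ± 1.31 (SE, edgeR adjusted p = 0.330). Per kb of exon, its GFP-positive mean was 8.55 ± 10.2 CPM, against 38.6 ± 5.31 CPM for Siglece. F13a1 was highest in GFP-positive library 3, at 136 CPM. Without that library its log2 fold change was 0.49. Cx3cr1, the fractalkine receptor, had 365, 3 and 193 counts in GFP-positive libraries against 203, 213 and 21 in GFP-negative ones and did not pass either. Ly6c2 and Ccr2, which define inflammatory monocytes, had 6 and 1 counts over the GFP-positive libraries against 647 and 44 over the GFP-negative ones. All 44 Ccr2 counts lay in GFP-negative library 2. Vcan was at 0 in GFP-positive libraries and had 11 counts, all in GFP-negative library 1. Neither Ccr2 nor Vcan passed the filter on low counts. The part of neutrophils and monocytes in the Siglece reads was not tested.

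Cd33 (ENSMUSG00000004609), a myeloid member, was low on both sides. It had 92, 44 and 73 counts, or 5.70, 2.56 and 4.04 CPM, in GFP-positive libraries, against 4, 116 and 0 counts, or 0.207, 6.40 and 0 CPM, in GFP-negative libraries. GFP-negative library 2 alone was above every GFP-positive library, so the groups overlapped. The log2 fold change was 0.90 ± 1.96 (SE), and 5.23 without that library. Per 1000 Clec4f counts Cd33 had 1.21, 0.481 and 0.721 in GFP-positive libraries, against 0.759, 22.1 and 0 in GFP-negative ones.

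Siglech (ENSMUSG00000051504), which signals through DAP12, was the most erratic member. It had 32, 90 and 0 counts, or 1.98, 5.24 and 0 CPM, in GFP-positive libraries, against 214, 0 and 1 counts, or 11.1, 0 and 0.0435 CPM, in GFP-negative libraries. Each group held a library with none. The log2 fold change was −0.62 ± 2.56 (SE), and 6.35 without GFP-negative library 1, which turns its direction. Of 9 plasmacytoid dendritic cell markers, 6 were at 0 in all GFP-positive libraries, among them Ccr9, Cox6a2 and Pacsin1, and Klk1 was at 0 in every library. Ccr9, with 5, 0 and 5 counts, and Cox6a2, with 21, 18 and 0, were low in GFP-negative libraries too. Neither passed the filter on low counts. Of the 3 measured, Spib and Pacsin1 were lower, Upb1 did not pass, and Pacsin1 lost its call when any 1 GFP-negative library was left out. The list summed to 9.15 to 39.7 CPM in the GFP-positive libraries, against 239 to 344 CPM in the GFP-negative ones. Most of the GFP-positive sum was Upb1, with 312, 152 and 621 counts against 500, 387 and 499 in GFP-negative libraries. Most of the GFP-negative sum was Spib, which B cells express too, with 45, 0 and 93 counts in GFP-positive libraries against 5860, 3705 and 6270 in GFP-negative ones. Runx2, the other marker with counts in GFP-positive libraries, had 10, 5 and 2 there against 37, 0 and 5 in GFP-negative libraries.

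Siglecf (ENSMUSG00000039013) had 0 counts in all 6 libraries, which allows up to 0.0584 CPM over the GFP-positive and 0.0496 CPM over the GFP-negative group. The eosinophil genes Epx and Prg3 were also at 0 throughout. The list of 6 eosinophil markers summed to 0 to 28.3 CPM in the GFP-positive libraries, against 3.13 to 11.1 CPM in the GFP-negative ones, the top value from 352 counts of Ccr3 in GFP-positive library 1. In the annotation Siglecf and Siglecg are adjacent protein-coding genes on chromosome 7, so neighbours in the genome stood at 0 and at 193 CPM in the same GFP-negative libraries. Of the 7 members 6 lie on that chromosome, and Siglec1 lies on chromosome 2. Siglec genes resemble each other in sequence, and how the authors counted reads that match several genes was not given in the sources used here.

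Beyond the 7 members, Mag, the siglec of myelin and the neighbour of Cd22, had 87, 2 and 0 counts in GFP-positive libraries against 2, 1 and 0 in GFP-negative ones, and its 87 counts lay in the library with the most Cd22 of that group. Siglec15, known from osteoclasts and macrophages, had 0 counts in all 6 libraries. Neither passed the filter on low counts.

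Genes of like pattern were found by the root-mean-square difference of centred log2 CPM over the 6 libraries, as a description. Near Siglecg were Igkv1-117 (0.44), an immunoglobulin segment, and Ikzf3 (0.47), a lymphocyte transcription factor. Cd22 lay nearest to Ccdc51 (0.39), Blk (0.42), a kinase of B cells, and H2-K2 (0.45). Siglece had Ccl2 (0.59), a monocyte-attracting chemokine, Plxna4os1 (0.61) and Zdhhc24 (0.62). No gene was closer to Siglec1 than Hnmt (0.90), which breaks down histamine, Ifitm6 (1.00) and Nynrin (1.01). Around Cd33 came Rd3 (0.49) and Trnp1 (0.54), and around Siglech came Msl3l2 (0.59), Actr3b (0.69) and Cxcl5 (0.77). Hnmt had 282, 377 and 409 counts in GFP-positive libraries against 0, 2 and 82 in GFP-negative ones, the same lone GFP-negative library 3 as Siglec1.

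Siglec ligands are built by enzymes that make sialic acid and attach it, and these were tested in the fit across all genes. Of 10 genes of sialic acid metabolism 9 were measured, of which 3 were higher, 1 lower and 5 did not pass (median log2 fold change 0.54, against −0.09 over all genes). Cmah, which makes the glycolyl form of sialic acid that mouse CD22 prefers, had 6.51, 21.3 and 31.4 CPM in GFP-positive libraries, with a mean of 19.7 ± 12.5 against 188 CPM in GFP-negative libraries (SD, n = 3). Its log2 fold change was −3.25 ± 0.57 (SE; edgeR adjusted p = 0.0113). Nagk, a kinase of amino sugars, rose by 1.77 ± 0.24 (adjusted p = 0.00403). Npl, the lyase that breaks sialic acid down, was at 1.38 ± 0.31 (adjusted p = 0.0246) and Slc35a1, the carrier of activated sialic acid into the Golgi, at 1.17 ± 0.32 (adjusted p = 0.0460). Siae, an esterase of sialic acid, did not pass (0.14 ± 0.58; adjusted p = 0.911). The call of Npl was lost without any 1 library except GFP-positive library 3 (adjusted p = 0.0542 to 0.0771), and that of Slc35a1 without any 1 except GFP-positive library 2 (0.111 to 0.136), without the filter on low counts (0.0661) and with library totals alone (0.0515). The 10 B cell markers were also lower, with a median of −6.98 and the smallest drop at −5.65, larger than that of Cmah. Their part in the Cmah difference was not tested.

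Of 20 sialyltransferases 5 had 0 counts throughout and 12 were measured, of which 2 were higher, 2 lower and 8 did not pass (median 0.13). St3gal5, which makes the first ganglioside, had 337 ± 54.8 CPM in GFP-positive against 52.2 CPM in GFP-negative libraries, and rose by 2.69 ± 0.27 on the log2 scale (SE, n = 3; edgeR adjusted p = 0.00110). St3gal4, which caps glycoproteins, rose by 1.25 ± 0.19 (adjusted p = 0.00571). St8sia6, whose products are known ligands of Siglec-E in mice, had 0 counts in GFP-positive libraries against 865, 544 and 1119 in GFP-negative ones, at least 704-fold lower (edgeR adjusted p = 0.00172). St8sia4, a polysialic acid synthase, had 2, 1 and 39 counts in GFP-positive against 1587, 2000 and 2065 in GFP-negative libraries, a log2 fold change of −6.88 ± 1.24 (adjusted p = 0.0121). It was −9.93 without GFP-positive library 3, and without GFP-negative library 2 the adjusted p was 0.0504.

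St6gal1, which makes the linkage that CD22 binds, had 48, 756 and 687 counts in GFP-positive libraries against 4294, 2341 and 4538 in GFP-negative ones. The groups did not overlap, yet it missed the threshold, at −2.69 ± 0.85 (SE; edgeR adjusted p = 0.0743), and without GFP-positive library 1 it passed, at −2.15 (0.0107). DESeq2 also called it lower (adjusted p = 0.00395). Of 4 neuraminidases, which remove sialic acid, Neu2 and Neu4 had 0 counts throughout and 0 of the 2 measured passed by edgeR, DESeq2 or an unadjusted p of 0.05. Neu1, the lysosomal one, was at −0.89 ± 0.44 (adjusted p = 0.235).

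**Figure D5:**
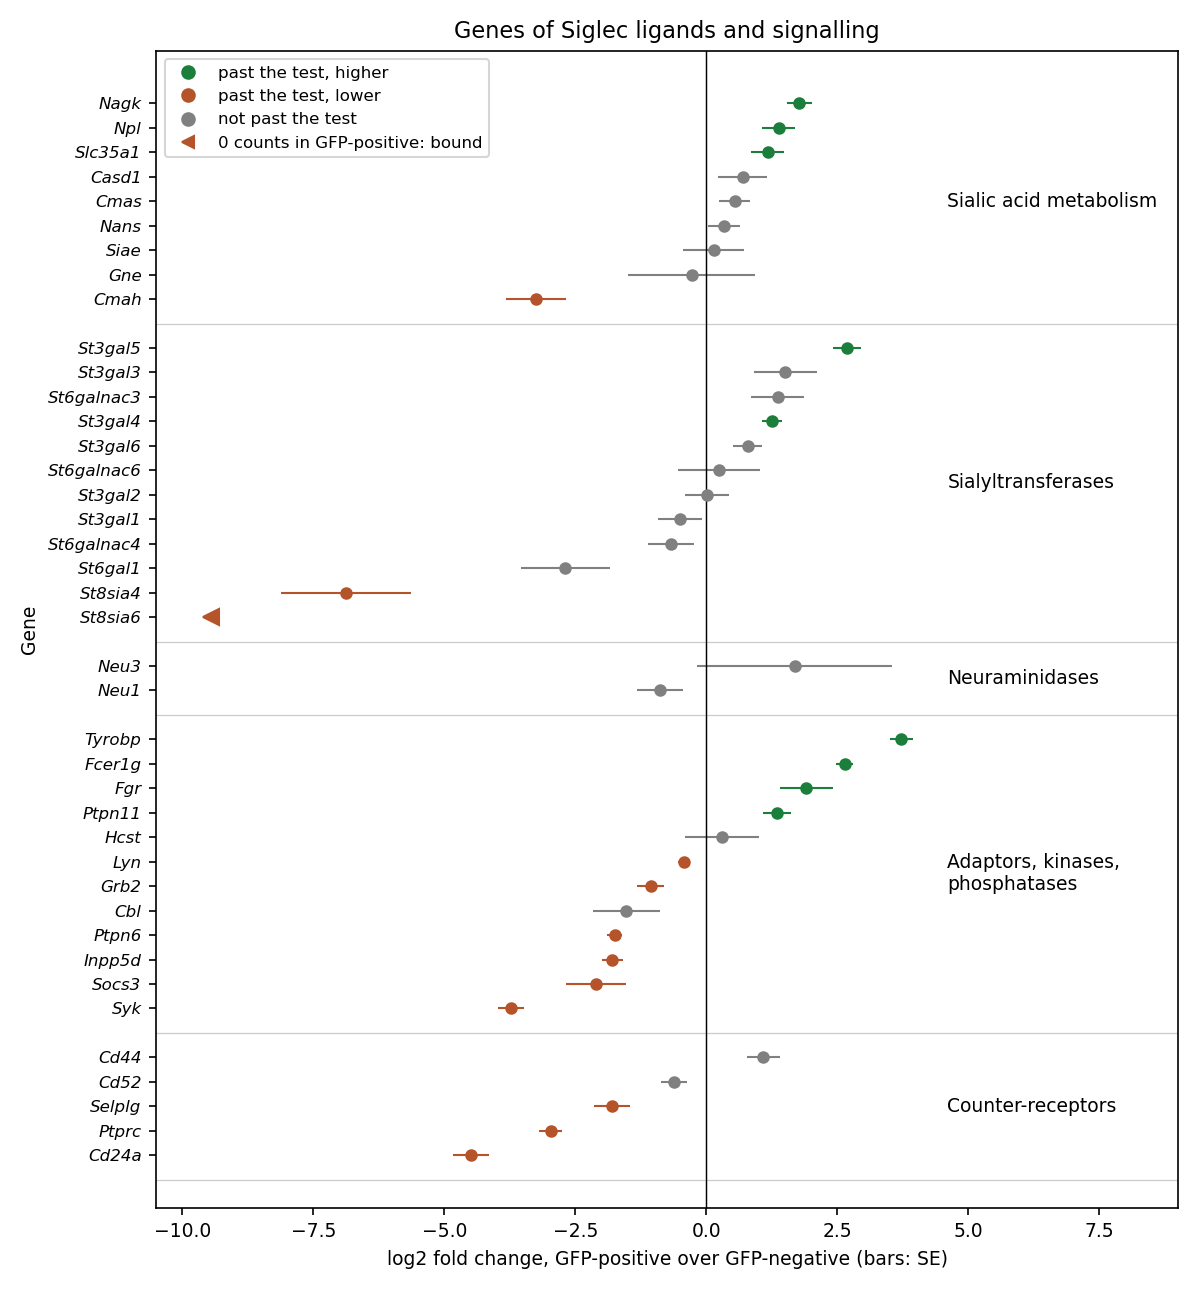
Log2 fold change, GFP-positive over GFP-negative, of the measured genes of Siglec ligands and signalling, 1 left out, with SE bars, coloured by whether the gene passed edgeR's test; a triangle marks a gene with 0 counts in GFP-positive libraries, drawn at its bound. The adaptor Tyrobp (3.72), the sialyltransferase St3gal5 (2.69) and the adaptor Fcer1g (2.64) stand at the upper end. Syk (−3.73), Cd24a (−4.49), St8sia4 (−6.88) and St8sia6 stand at the lower.

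Downstream of the receptors, all 13 adaptors, kinases and phosphatases were measured, of which 5 were higher, 6 lower and 2 did not pass (median −0.43). Tyrobp, the DAP12 adaptor that Siglec-H uses, had 866, 784 and 562 CPM in GFP-positive libraries, a mean of 737 ± 158 against 56.1 CPM in GFP-negative ones (SD, n = 3), and rose by 3.72 ± 0.22 (SE; edgeR adjusted p = 0.000125). Fcer1g, the Fc receptor gamma chain, rose by 2.64 ± 0.16 (adjusted p = 0.000132). The phosphatase SHP-1, product of Ptpn6 and the main partner of CD22, was lower, with 131 ± 11.5 CPM in GFP-positive against 440 CPM in GFP-negative libraries and a log2 fold change of −1.75 ± 0.14 (adjusted p = 0.000326). Inpp5d, the lipid phosphatase SHIP-1, was at −1.80 ± 0.20 (adjusted p = 0.00184). Ptpn11, the related phosphatase SHP-2, went the other way, at 1.35 ± 0.27 (adjusted p = 0.0173).

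The kinases split likewise. Syk, which relays B cell receptor and DAP12 signals, had 38.1 ± 11.9 CPM in GFP-positive against 505 CPM in GFP-negative libraries, or −3.73 ± 0.25 on the log2 scale (SE; edgeR adjusted p = 0.000187). Fgr, a Src family kinase of myeloid cells, was at 1.91 ± 0.50 (adjusted p = 0.0396). Lyn, the kinase that phosphorylates CD22, was at −0.43 ± 0.12 (adjusted p = 0.0444). The call of Lyn was lost whichever library was left out (0.0528 to 0.124) and without the filter (0.0858), and that of Fgr without any 1 library except GFP-positive library 1 (0.0787 to 0.114) and without the filter (0.0605). Ptpn11 no longer passed without GFP-positive library 1 (0.0514) or GFP-negative library 2 (0.0655). The number of lower genes was 3 without any 1 library other than GFP-positive library 3, and that of higher genes was 2 without GFP-negative library 2.

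Of 7 proteins known to present sialic acid to siglecs 5 were measured, of which 3 were lower and 2 did not pass (median −1.80). By edgeR 0 were higher, with 1 at an unadjusted p under 0.05, Cd44, which DESeq2 called higher. Cd24a, the counterpart of Siglec-G, had 14.9 ± 5.55 CPM in GFP-positive against 335 CPM in GFP-negative libraries, or −4.49 ± 0.34 on the log2 scale (SE; edgeR adjusted p = 0.000328). Ptprc, which encodes CD45, a glycoprotein ligand of CD22 on the same cell, had 69.6, 95.8 and 120 CPM in GFP-positive against a mean of 746 CPM in GFP-negative libraries, at −2.97 ± 0.22 (adjusted p = 0.000272). Selplg, a mucin that Siglec1 binds, was at −1.80 ± 0.34 (adjusted p = 0.0150), a call lost without GFP-negative library 1 (0.0636) or 3 (0.0585). Spn, the mucin CD43 and another partner of Siglec1, was too low for the test, with 4, 6 and 0 counts in GFP-positive libraries against 71, 4 and 313 in GFP-negative ones. B cells express CD24 and CD45, and the B cell markers of the same libraries had a median of −6.98; their part in these differences was not tested.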

How the data were processed

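Poly-A RNA sequencing was done on 3 GFP-positive and 3 GFP-negative libraries. The authors' deposited file holds raw counts per Ensembl gene, 1 column a library per the file headers. Tools named, with no role, per the submitters' processing notes were RSEM, HTSeq 0.6.1, edgeR, DESeq 1.18.0, TopHat2 2.0.12 and Bowtie2 2.2.3; for build, annotation and strand setting, nothing was given in the sources used here. Symbols came from a supplied table (34490 of 35275 identifiers). The test was edgeR 4.0.16 under R 4.3.3, with a filter at a minimum count of 10, TMM and the robust quasi-likelihood test. Benjamini-Hochberg adjustment ran over 12122 genes, and the code was tried on simulated data. These took each gene's spread from the trend over all genes, which for Siglec1 was 0.62 against its own 1.32 (coefficient of variation). How the test behaves for genes as uneven as that was not tested. SE is the fold change over the root of the test statistic. Nearest patterns used a prior count of 2. Exon lengths were merged GENCODE M21 exons (GRCm38), which may differ from the annotation counted. Every pair of libraries in a group differed beyond the sampling noise of independent reads (chi-square per degree of freedom 73.7 to 125). Because reads are not independent molecules, this value cannot show a difference beyond the sampling of molecules.

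Members and gene lists were chosen with earlier results of these data known. Named were all members, Mag and Siglec15, up to 4 called genes a list by smallest p, those called against their list, 12 fixed genes, markers and nearest patterns; any other gene was named after its values were seen. Another relative, Siglecl2, had no identifier. A few genes that the rule names are not reported here, though the counts of their lists include them. Alternatives were DESeq2 1.42.0, its size factors, library totals alone, no filter, no immunoglobulin genes and each library left out.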

Additional observations from a re-analysis of the deposited data

How the results depend on the processing

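No paired analysis was possible because the labels give the groups no shared replicate numbers. With DESeq2's size factors, library totals alone, no filter or no immunoglobulin genes, every count over all genes, the members and the ligand and signalling lists stayed within 1.5 times its value. DESeq2's Wald test gave 1693 higher and 2089 lower genes over the whole table, 2 higher members, 5 higher sialyltransferases and 1 higher counter-receptor. Leaving out 1 library gave 497 to 743 higher and 496 to 1067 lower genes over the whole table, 0 to 1 higher members (Siglece without GFP-negative library 1, Siglec1 without GFP-negative library 3), 1 to 2 higher genes of sialic acid metabolism, 1 to 3 lower sialyltransferases, 2 to 4 higher and 3 to 5 lower adaptors, kinases and phosphatases, and 0 to 1 higher counter-receptors; fewer samples enter each such fit. Cd22 and Siglecg were past the threshold as lower in every fit run. This is no independent support, since the members were chosen with this comparison in view and the fits share libraries. For Cd33 and Siglech, at 44 to 116 and 32 to 214 counts in the libraries that hold most of their reads, 1 library set the size or direction of the fold change, so these data bear no direction for them.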
